A study of Mus musculus with 12 samples.

Results

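The 64 genes described here encode the machinery that brings new proteins into the endoplasmic reticulum (ER) and the coats that carry them between the ER and the Golgi. They were matched by symbol, with no threshold on a measured value, but the symbols were chosen with earlier results of these data known. The symbols were Sec11, Sec13, Sec16, Sec22, Sec23, Sec24, Sec31 and Sec61 to Sec63 genes, Ssr1 to Ssr4, Srp and Srpr genes, Spcs genes, the Copa, Copb, Cope, Copg and Copz genes, Tmed genes, Sar1 genes and Arf1 to Arf6. All 64 were measured, out of 12643 genes in all, and all were tested. Sec31b, Srp54b and Tmed11 have such names but were not analysed here. By role, 9 genes belong to the signal recognition particle and its receptor, 6 to the Sec61 channel with Sec62 and Sec63, 4 to the Ssr complex, 5 to signal peptidase, 13 to the COPII coat, 10 to the Tmed family, 8 to the COPI coat, 6 to the Arf GTPases and 3 to the Sec22 family.

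A secretory protein such as proinsulin is recognised by the signal recognition particle as its signal peptide leaves the ribosome, and the particle docks at its receptor on the ER membrane. The chain then enters the ER through the Sec61 channel, helped by the Ssr complex, and signal peptidase removes the signal peptide. COPII vesicles, built by the GTPase Sar1, carry cargo out of the ER, and COPI vesicles, built by coatomer and Arf1, bring escaped proteins and receptors back. Pancreatic beta cells put much of their protein synthesis through this route, since insulin is their main product.

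The RNA came from MIN6, a mouse insulinoma line in wide use as a beta cell model. In 2 of the 4 groups the cells had been nucleofected with an siRNA against Pdx1, a homeodomain factor that activates the insulin genes, and in the other two with the NT siRNA, called control here. All cells were at passage 29, were grown in DMEM with high glucose and were taken 72 h after transfection. Each siRNA gave IP RNA, carried by ribosomes isolated through an affinity tag in the TRAP procedure (translating ribosome affinity purification), and total RNA, with 3 libraries for each siRNA and kind of RNA, numbered by replicate (control IP 3). A cell line under a transient siRNA shows the response of that line at a single time. Nothing in the labels says that the 3 replicates of a group were grown separately, so the p-values cover the spread among these libraries alone, which may be technical. The sources used here do not name the tagged ribosomal protein, the library kit or the strand setting.

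The libraries held 29430690 to 45806807 counts over the 12643 genes, and the 64 genes took 2.32% to 2.38% of them in Pdx1 siRNA IP RNA, against 2.04% to 2.13% in control IP RNA. In total RNA the share was 1.97% to 2.12% with Pdx1 siRNA and 1.88% to 1.94% with control siRNA. Pdx1 had 47.6, 57.4 and 47.9 CPM (counts scaled to library size) in Pdx1 siRNA total RNA and 118, 123 and 109.6 CPM in control total RNA. Pdx1 had 50.6, 46.7 and 39.2 CPM in Pdx1 siRNA IP RNA and 104, 115 and 111 CPM in control IP RNA, with log2 fold changes of −1.20 in total RNA and −1.27 in IP RNA and no overlap in either. All 9 markers of beta cells were measured, Ins1, Ins2 and Pdx1 among them, with 1 higher and 4 lower in total RNA and 1 higher and 5 lower in IP RNA after Pdx1 siRNA. Their summed level was 93829.9 to 100267 CPM in Pdx1 siRNA total RNA and 104172 to 115337 CPM in control total RNA, and 185390.0 to 229089 CPM in Pdx1 siRNA IP RNA and 204818 to 239427 CPM in control IP RNA. No marker of immune, endothelial, stromal, acinar or duct cells was among the genes analysed here. All 6 measured markers of other islet cells (Gcg, Gc, Ttr, Ppy, Irx1 and Irx2) were higher with Pdx1 siRNA, with medians of 1.71 in total RNA and 1.77 in IP RNA on the log2 scale. Their summed level was 31497 to 35175 CPM in Pdx1 siRNA total RNA and 10766 to 13035 CPM in control total RNA, and 61430.0 to 77530.3 CPM in Pdx1 siRNA IP RNA and 19709 to 23901 CPM in control IP RNA, and their part in the results below was not tested. In such bulk RNA, fewer cells of a type and less RNA per cell cannot be told apart.

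Control IP replicate 3 stood apart from control IP replicates 1 and 2, by more than 2-fold at 135 genes, and at 128 of these all 3 Pdx1 siRNA IP libraries were nearer to replicate 3. None of the 64 genes was among the 135. For the 64 genes, results in IP RNA are therefore also given with a term for the set made of control IP 3 and the 3 Pdx1 siRNA IP libraries. This term compares the Pdx1 siRNA libraries with a single control library. In 4 of the genes most of the transcript matches a near-identical copy elsewhere (Srp54c 100%, Sec61b 83.2%, Srp54a 80.9% and Srpr 63.7% of its length), so their counts are uncertain. A stretch of 11.7% to 19.9% of the exon length lies opposite exons of another gene in Sec61a2, Copg2, Arf4, Arf5, Spcs1, Srp9, Tmed1, Arf6, Ssr2 and Sec62, and 20.7% of Srprb overlaps a gene on the same strand. Reads of such partners cannot be told apart if strand was not used in counting.

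More of these genes were higher than lower after Pdx1 siRNA. In total RNA 27 of 64 were higher (42.2%) and 6 lower (9.38%) by edgeR's quasi-likelihood test at an adjusted p under 0.05, while of all 12643 genes 23.8% were higher and 29.2% lower. The median log2 fold change was 0.17 over the 64 genes and −0.04 over all genes. The libraries of both siRNAs did not overlap for 33 genes that were higher and 6 that were lower, against 26.1% and 32.6% of all genes. In IP RNA 28 were higher (43.8%) and 12 lower (18.8%), against 29.2% and 30.4% of all genes, with a median of 0.15 over the 64 genes and −0.01 over all. Here the libraries did not overlap for 31 genes that were higher and 12 that were lower, against 32.3% and 32.6% of all genes.

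Of the 64 genes 21 were higher in both kinds of RNA and 3 were lower in both (Arf1, Arf2 and Tmed1), and no gene was called in opposite directions. A further 7 were called higher in IP RNA alone and 6 in total RNA alone, and 9 were called lower in IP RNA alone and 3 in total RNA alone. The siRNA effect did not pass the test of a difference between IP and total RNA for any of the 64, where 29 of all genes did (0.229%, with 0.174% higher in IP RNA and 0.0554% lower). At an unadjusted p under 0.05 the difference was present for 13 of the 64 and 17.0% of all genes. DESeq2 called 1 gene, Copb2, whose effect was lower in IP RNA by 0.25 (edgeR adjusted p = 0.211). With a replicate block edgeR called 373 of all genes and 1 of the 64, Sec11c, whose effect was larger in IP RNA. Without Pdx1 siRNA total replicate 1 it called 383 of all genes, and without control IP replicate 3 it called 571. Among the 64 the first of these fits called a larger effect in IP RNA for Copz2 (0.62, adjusted p = 0.0332) and Srp9 (0.60, adjusted p = 0.0365). The fit without control IP replicate 3 called a lower effect for Srp54c (−0.49, adjusted p = 0.0148).

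With the term for the set of 4 IP libraries, 22 of the 64 genes were higher and 3 lower in IP RNA, against 20.6% of all genes in each direction. Within these 4 libraries alone 14 were higher and 1, Copg2, was lower, against 19.3% and 19.5% of all genes, so the share of higher genes there was near that of all genes. The 14 were Arf3, Copz2, Sar1b, Sec11c, Sec22a, Sec62, Spcs1, Ssr1, Ssr4, Tmed3, Tmed4, Tmed5, Tmed6 and Tmed9. All 14 were past the test in IP RNA under all 23 alternatives. In total RNA 21 of the 27 higher genes and 5 of the 6 lower ones (Arf1, Arf2, Arf5, Arf6 and Tmed1) were past the test under all 22 alternatives.

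**Figure D1:**
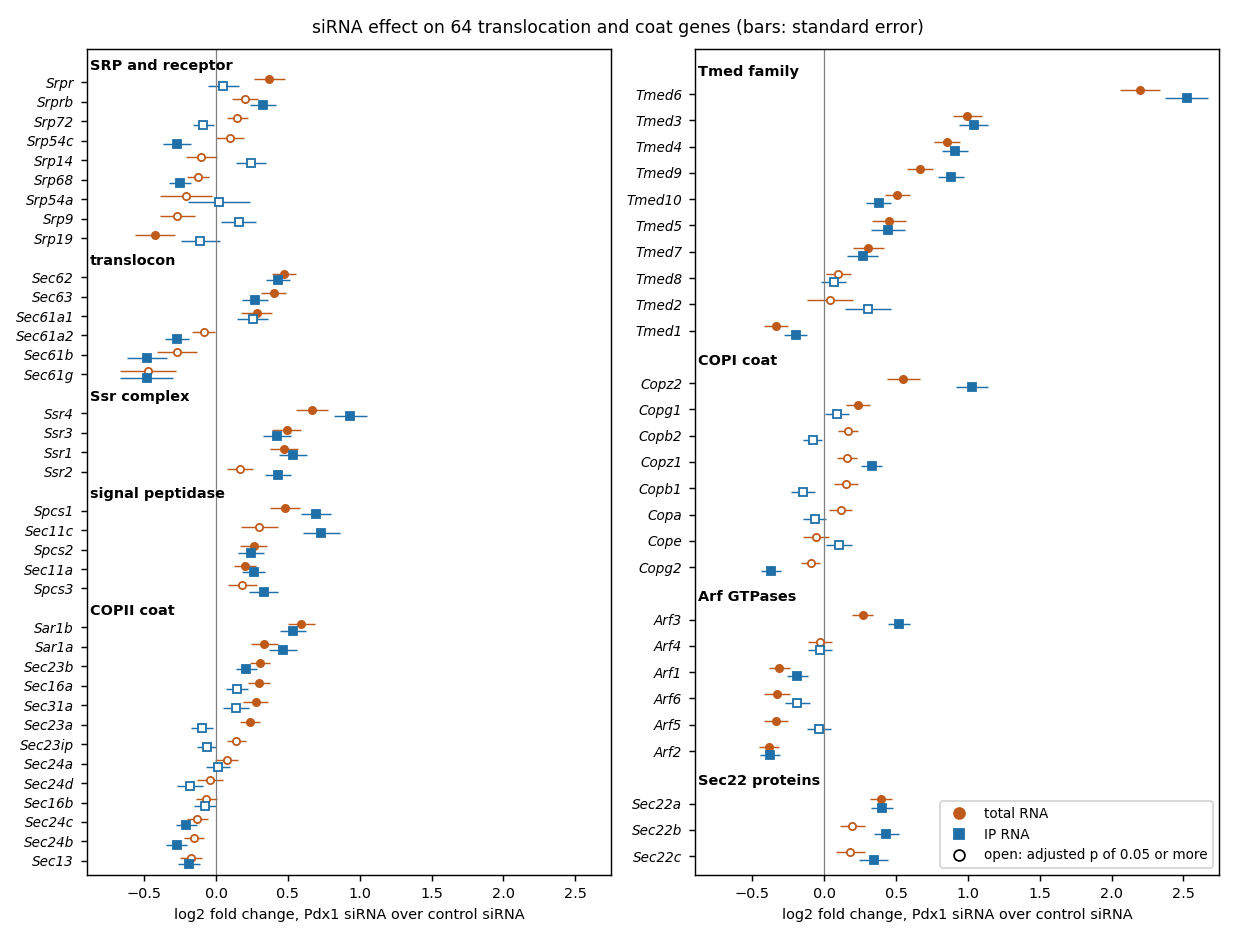
Log2 fold change of Pdx1 siRNA over control siRNA for the 64 genes by role, in total RNA (orange circles) and IP RNA (blue squares), with standard errors; open symbols mark an adjusted p of 0.05 or more. The Ssr complex, signal peptidase and Sec22 genes lie right of 0 in both kinds of RNA, Arf1, Arf2, Arf4, Arf5 and Arf6 lie left of 0 in both, and Tmed6 lies farthest right.

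The Tmed genes held the largest effects of the 64, those of Tmed6 and Tmed3, in both kinds of RNA. Most of them encode p24 cargo receptors, which cycle between the ER and the Golgi in both kinds of vesicle. Of the 10, 7 were higher and 1 lower in total RNA, and the same counts held in IP RNA, with medians of 0.48 and 0.41. Of all genes 23.8% were higher and 29.2% lower in total RNA, and 29.2% and 30.4% in IP RNA. The gamma subfamily has 5 of these genes, of which Tmed3, Tmed5, Tmed6 and Tmed7 were higher and Tmed1 was lower in both kinds of RNA. The alpha members analysed here, Tmed4 and Tmed9, and the delta member Tmed10 were higher in both, while Tmed2, the beta member, and Tmed8 passed neither test.

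Tmed3 was the Tmed gene with the highest level per kilobase of transcript, at 1544 ± 109 CPM per kilobase in Pdx1 siRNA total RNA and 774 ± 25.8 in control total RNA (SD, n = 3). It had 2049.9, 1948 and 2237 CPM in Pdx1 siRNA total RNA and 1081, 1014 and 1029.7 CPM in control total RNA. In IP RNA it had 4275, 3749 and 4638 CPM with Pdx1 siRNA and 2117, 1889 and 2148 CPM with control siRNA. Every Pdx1 siRNA library thus lay above every control library of the same kind of RNA, by 2.00-fold in total RNA (log2 fold change 1.00, SE 0.10, adjusted p = 8.7e-07) and 2.06-fold in IP RNA (log2 fold change 1.04, SE 0.10, adjusted p = 4.5e-07).

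Tmed6 had the largest fold change of the 64 and a far lower level. It had 10.6, 9.12 and 11.3 CPM in Pdx1 siRNA total RNA and 2.51, 2.11 and 2.14 CPM in control total RNA, from 345 to 408 counts and 99 to 109 counts. Tmed6 had 11.5, 9.66 and 12.9 CPM in Pdx1 siRNA IP RNA and 2.20, 2.17 and 1.54 CPM in control IP RNA. The groups stood far apart in both, by 4.58-fold in total RNA (log2 fold change 2.20, SE 0.14, adjusted p = 5.2e-09) and 5.75-fold in IP RNA (log2 fold change 2.52, SE 0.15, adjusted p = 1.6e-09).

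Tmed4 had 557, 622 and 687 CPM in Pdx1 siRNA total RNA and 340.2, 353 and 339 CPM in control total RNA. Its IP values were 776, 789 and 906 CPM with Pdx1 siRNA and 431, 438 and 448 CPM with control siRNA. The lowest Pdx1 siRNA library was above the highest control library in both kinds of RNA, with effects of 0.85 (SE 0.09, adjusted p = 1.5e-06) and 0.91 (SE 0.09, adjusted p = 6.3e-07) on the log2 scale. Tmed9, named here after its values were seen, had a log2 fold change of 0.67 (SE 0.09, adjusted p = 1.9e-05) in total RNA and 0.88 (SE 0.09, adjusted p = 8.7e-07) in IP RNA.

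The other Tmed genes moved less. Tmed10 was at 0.51 in total RNA and 0.38 in IP RNA, and Tmed5 at 0.45 and 0.44; 44.5% of the Tmed10 transcript matches a pseudogene. With the term for the set of 4 IP libraries Tmed5 was at 0.77 (adjusted p = 2.3e-04) in IP RNA, over 1.5 times its value without it. Tmed7 was at 0.31 (SE 0.11, adjusted p = 0.0243) in total RNA and 0.27 (SE 0.11, adjusted p = 0.0412) in IP RNA. Its call in total RNA was lost without Pdx1 siRNA total 3 (0.22, adjusted p = 0.111), and that in IP RNA without Pdx1 siRNA IP 2, Pdx1 siRNA IP 3, control IP 1, control IP 2 or control IP 3 (0.19 to 0.29, adjusted p = 0.0617 to 0.163) and with the term for the set, at 0.38 (adjusted p = 0.0607). Tmed1 was lower, at −0.34 (SE 0.08, adjusted p = 0.00303) in total RNA and −0.20 (SE 0.08, adjusted p = 0.046) in IP RNA. In IP RNA its libraries overlapped and its call was lost without Pdx1 siRNA IP 1, Pdx1 siRNA IP 2, control IP 1, control IP 3, control total 1, control total 2 or control total 3 (−0.22 to −0.13, adjusted p = 0.0686 to 0.192), and with the term for the set Tmed1 was at −0.30 (adjusted p = 0.0374).

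**Figure D2:**
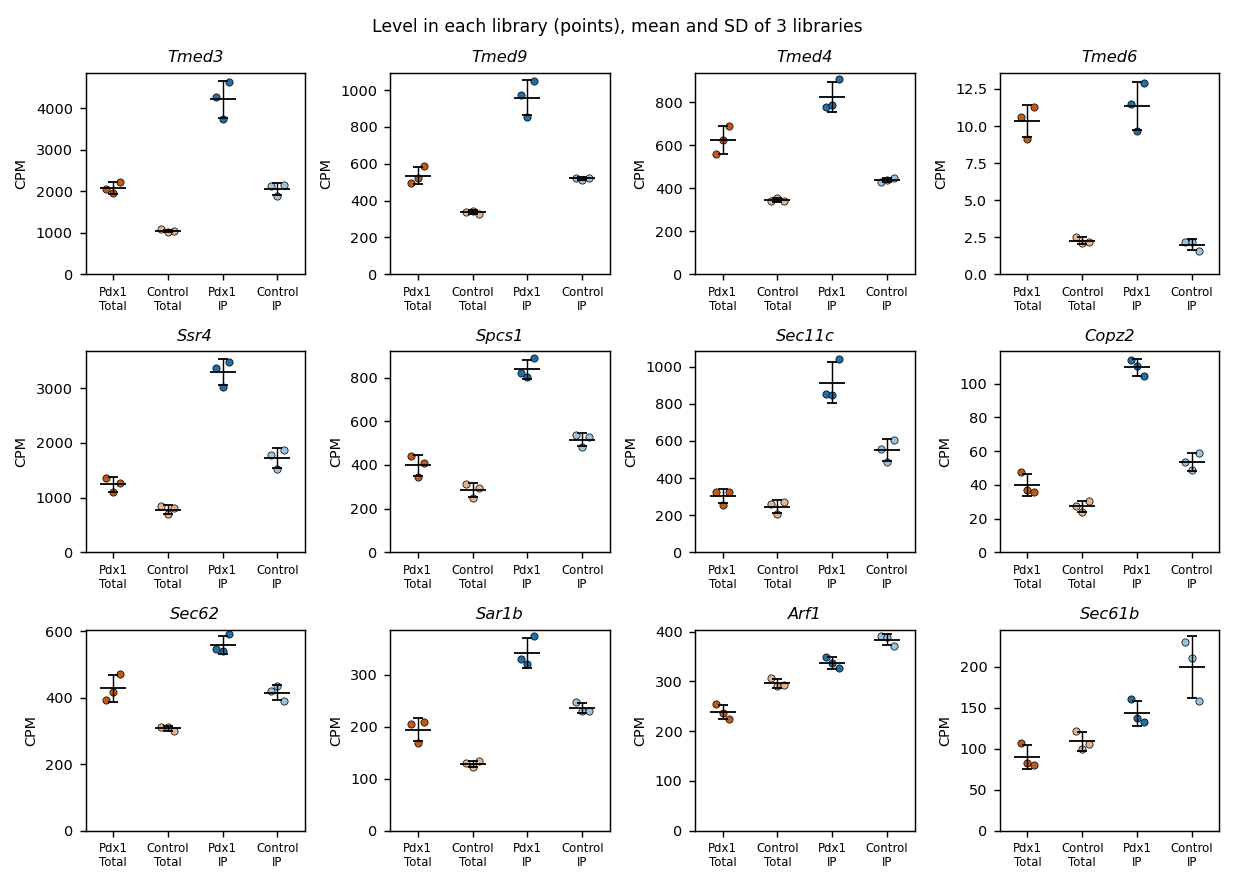
Level in CPM (linear axes that start at 0) of 12 of the genes in each library (points), with the mean (bar) and SD of 3 libraries, in Pdx1 siRNA total, control total, Pdx1 siRNA IP and control IP RNA. Tmed3, Tmed4, Tmed6, Tmed9, Ssr4, Spcs1, Copz2, Sec62 and Sar1b are separated by siRNA in both kinds of RNA and Sec11c in IP RNA; Arf1 lies lower with Pdx1 siRNA, and control IP replicate 3 of Sec61b lies at the height of the Pdx1 siRNA libraries.

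The bases upstream of the Tmed3 and Tmed6 starts are shown because these genes had the largest changes at a high and at a low level. They are the 250 bases before each start in RefSeq (GRCm38.p6), read 5′ to 3′ on the gene's strand, with the CG dinucleotides in capitals.
Tmed3 (chr9:89705044-89705293, − strand): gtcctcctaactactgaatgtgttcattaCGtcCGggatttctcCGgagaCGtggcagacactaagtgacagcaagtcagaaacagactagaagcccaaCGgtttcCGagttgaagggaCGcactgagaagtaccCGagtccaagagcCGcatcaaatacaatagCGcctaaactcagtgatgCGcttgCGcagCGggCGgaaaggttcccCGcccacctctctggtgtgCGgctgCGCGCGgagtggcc
Tmed6 (chr8:107065645-107065894, − strand): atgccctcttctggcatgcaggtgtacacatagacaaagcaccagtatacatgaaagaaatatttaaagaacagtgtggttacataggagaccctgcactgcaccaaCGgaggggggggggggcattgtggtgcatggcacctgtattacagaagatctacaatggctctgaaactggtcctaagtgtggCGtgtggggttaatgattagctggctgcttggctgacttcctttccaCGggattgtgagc
The Tmed3 stretch has a GC content of 56.4% and 19 CG dinucleotides, and the Tmed6 stretch 49.6% and 3. Medians were 58.8% and 17.5 over the 62 windows of 55 of these genes, and 52.4% and 6.0 over the 32851 windows of the table. Sec62 and Sec61g also had 3, and Sec16b had a median of 3.5 over 2 windows.

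The Ssr complex, also called the translocon-associated protein complex, sits beside the Sec61 channel and helps chains with weak signal peptides to enter. All 4 of its genes were higher in IP RNA and 3 of 4 in total RNA, with medians of 0.48 in both. The shares of all genes that were higher were 29.2% in IP RNA and 23.8% in total RNA. Ssr4, with the highest level per kilobase of all 64 genes, had 1367, 1096 and 1263 CPM in Pdx1 siRNA total RNA and 847, 694 and 807 CPM in control total RNA. The Pdx1 siRNA IP libraries had 3372, 3031 and 3484 CPM and the control IP libraries 1772, 1529.7 and 1869.9 CPM. The groups did not overlap in either, and the fold was 1.59 in total RNA (log2 fold change 0.67, SE 0.11, adjusted p = 1.6e-04) and 1.91 in IP RNA (log2 fold change 0.94, SE 0.11, adjusted p = 5.0e-06).

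Ssr1 had 1639, 1639 and 1964 CPM in Pdx1 siRNA total RNA and 1245, 1269 and 1260.4 CPM in control total RNA. For IP RNA the values were 2204, 2161 and 2575 CPM with Pdx1 siRNA and 1612, 1619 and 1564 CPM with control siRNA. Replicate 3 was the highest Pdx1 siRNA library in both, and the groups did not overlap, with effects of 0.47 (SE 0.10, adjusted p = 7.7e-04) and 0.53 (SE 0.10, adjusted p = 2.4e-04). Ssr3 had 1137, 1024 and 1227 CPM in Pdx1 siRNA total RNA and 792, 781 and 838 CPM in control total RNA. With Pdx1 siRNA it had 1079, 1165 and 1363 CPM in IP RNA, against 913, 913 and 860.3 CPM with control siRNA, again with no overlap, and its effects were 0.49 (SE 0.10, adjusted p = 6.6e-04) in total RNA and 0.42 (SE 0.10, adjusted p = 0.0017) in IP RNA. Ssr2 was at 0.17 (SE 0.09, adjusted p = 0.135) in total RNA and higher in IP RNA, at 0.43 (SE 0.09, adjusted p = 7.9e-04).

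Signal peptidase has a catalytic subunit, which is either Sec11a or Sec11c, and the accessory subunits Spcs1, Spcs2 and Spcs3. All 5 genes were higher in IP RNA and 3 were higher in total RNA, with medians of 0.33 and 0.26, where 29.2% and 23.8% of all genes were higher. Spcs1 had 439, 346 and 407 CPM in Pdx1 siRNA total RNA and 312, 247 and 295 CPM in control total RNA. In IP RNA it had 822, 804 and 887 CPM with Pdx1 siRNA and 539, 484 and 526 CPM with control siRNA. Libraries of both siRNAs did not overlap, and the effects were 0.48 (SE 0.10, adjusted p = 0.00126) and 0.70 (SE 0.10, adjusted p = 4.1e-05).

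Sec11c had 326, 257 and 323 CPM in Pdx1 siRNA total RNA and 261, 204 and 269 CPM in control total RNA. Sec11c had 851, 849 and 1039 CPM in Pdx1 siRNA IP RNA and 557, 486 and 605 CPM in control IP RNA. The groups overlapped in total RNA, where replicate 2 was the lowest library of each, and were apart in IP RNA. The effect was 0.30 (SE 0.13, adjusted p = 0.0604) in total RNA and 0.73 (SE 0.13, adjusted p = 1.8e-04) in IP RNA, and the difference between them was 0.43 (SE 0.18, adjusted p = 0.24). With a replicate block in edgeR the effect in total RNA passed (0.30, adjusted p = 0.00369), and so did the difference. Libraries that share a number are not treated as pairs here. Sec11a was at 0.20 (SE 0.08, adjusted p = 0.0432) in total RNA, lost without Pdx1 siRNA total 3, control IP 1, control IP 2, control IP 3 or control total 2 (0.14 to 0.22, adjusted p = 0.0545 to 0.177), and at 0.26 (SE 0.08, adjusted p = 0.00978) in IP RNA, where the term for the set of 4 gave 0.26 (adjusted p = 0.103). Spcs2 was at 0.26 (SE 0.09, adjusted p = 0.0279) in total RNA, lost without Pdx1 siRNA total 1 or Pdx1 siRNA total 3 (0.22 to 0.23, adjusted p = 0.0628 to 0.0907). In IP RNA Spcs2 was at 0.24 (SE 0.09, adjusted p = 0.0346), lost without Pdx1 siRNA IP 3, control IP 2 or control IP 3 (0.17 to 0.25, adjusted p = 0.0754 to 0.142). Spcs3 passed in IP RNA alone, at 0.33 (SE 0.10, adjusted p = 0.0106), and was lost without Pdx1 siRNA IP 3 (0.25, adjusted p = 0.054) and with the term for the set, at 0.34 (adjusted p = 0.0849).

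The Sec61 channel genes did not move together. Sec62 and Sec63, helpers of the channel for chains that enter after synthesis, were higher in both kinds of RNA, and the pore subunit Sec61a1 in total RNA. The small subunits Sec61b and Sec61g and the second pore gene Sec61a2 were lower in IP RNA. Sec62 had 395, 418 and 473 CPM in Pdx1 siRNA total RNA and 312, 313 and 299.8 CPM in control total RNA. Its IP values were 546, 541 and 591 CPM with Pdx1 siRNA and 421, 435 and 391 CPM with control siRNA. No library of the groups overlapped, and the effects were 0.48 (SE 0.08, adjusted p = 2.2e-04) and 0.43 (SE 0.08, adjusted p = 4.3e-04).

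Sec63 had 404, 421 and 480.3 CPM in Pdx1 siRNA total RNA and 319.7, 337 and 333 CPM in control total RNA. The Pdx1 siRNA IP libraries had 331, 346 and 392 CPM and the control IP libraries 287, 317 and 284 CPM. The groups did not overlap, although the lowest Pdx1 siRNA IP library lay near the highest control one, and the effects were 0.40 (SE 0.09, adjusted p = 0.00155) and 0.27 (SE 0.09, adjusted p = 0.0172). In IP RNA its call was lost without Pdx1 siRNA IP 3, control IP 1 or control IP 3 (0.20 to 0.25, adjusted p = 0.0617 to 0.0825) and with the term for the set, at 0.33 (adjusted p = 0.0601).

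Sec61a1 had 1129, 1322 and 1463 CPM in Pdx1 siRNA total RNA and 1041, 1138 and 1038 CPM in control total RNA. For IP RNA the values were 1139, 1020.1 and 1298 CPM with Pdx1 siRNA and 949, 987 and 962 CPM with control siRNA. Replicate 1 of Pdx1 siRNA total RNA lay within the control range, and the effect was 0.28 (SE 0.11, adjusted p = 0.0369) in total RNA and 0.25 (SE 0.11, adjusted p = 0.052) in IP RNA. The call in total RNA was lost without Pdx1 siRNA total 2, Pdx1 siRNA total 3, control IP 1, control total 1 or control total 3 (0.19 to 0.30, adjusted p = 0.0504 to 0.162).

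Sec61b had 107, 82.8 and 80.4 CPM in Pdx1 siRNA total RNA and 122, 98.9 and 106 CPM in control total RNA. With Pdx1 siRNA it had 160.3, 137 and 132 CPM in IP RNA, against 230.1, 211 and 158 CPM with control siRNA. Control IP replicate 3 lay below the highest Pdx1 siRNA IP library, and the effect in IP RNA of −0.48 (SE 0.14, adjusted p = 0.00754) became −0.14 (adjusted p = 0.499) with the term for the set of 4 libraries. In total RNA it was −0.27 (SE 0.14, adjusted p = 0.11). Sec61g, at a mean of 5.39 ± 0.914 CPM in Pdx1 siRNA IP RNA and 7.47 ± 1.52 CPM in control IP RNA, was at −0.48 (SE 0.18, adjusted p = 0.035) and likewise at −0.10 (adjusted p = 0.756) with the term, and was lost without Pdx1 siRNA IP 2, Pdx1 siRNA IP 3, control IP 1 or control IP 2 (−0.52 to −0.35, adjusted p = 0.0608 to 0.155). Sec61a2 was at −0.27 (SE 0.08, adjusted p = 0.0101) in IP RNA and −0.22 (adjusted p = 0.145) with the term.

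Among the 9 genes of the signal recognition particle and its receptor 1 was higher and 1 lower in total RNA, and 1 higher and 2 lower in IP RNA, with medians of −0.10 and 0.02. In total RNA these were 11.1% in each direction, under the 23.8% and 29.2% of all genes. In IP RNA they were 11.1% and 22.2%, under the 29.2% and 30.4% of all genes. Srpr, the receptor's alpha subunit, had 1105, 1212 and 1328 CPM in Pdx1 siRNA total RNA and 916, 957 and 944 CPM in control total RNA. In IP RNA it had 998, 965 and 1169 CPM with Pdx1 siRNA and 1099, 1063 and 860.3 CPM with control siRNA. The groups were apart in total RNA and overlapped in IP RNA, with effects of 0.37 (SE 0.11, adjusted p = 0.00988) and 0.05 (SE 0.11, adjusted p = 0.708), and control IP replicate 3 was the lowest IP library. The difference between the effects was −0.32 (SE 0.15, adjusted p = 0.305).

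Srprb, the subunit that anchors the receptor, had 309.7, 322 and 358 CPM in Pdx1 siRNA total RNA and 282, 288 and 290.4 CPM in control total RNA. Srprb had 469.7, 438 and 553 CPM in Pdx1 siRNA IP RNA and 388, 379 and 395 CPM in control IP RNA. No library overlapped in either, the effect passed in IP RNA, at 0.33 (SE 0.09, adjusted p = 0.00541), and was at 0.20 (SE 0.09, adjusted p = 0.0725) in total RNA. With the term for the set it was at 0.30 (adjusted p = 0.0888) in IP RNA.

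The particle's own genes were mostly not called. Srp68, whose product binds the particle's RNA with that of Srp72, had 89.9, 105 and 90.1 CPM in Pdx1 siRNA total RNA and 103, 107 and 100.3 CPM in control total RNA. Its IP values were 99.5, 90.7 and 88.7 CPM with Pdx1 siRNA and 109, 113 and 111 CPM with control siRNA. The groups overlapped in total RNA and were apart in IP RNA, with effects of −0.13 (SE 0.08, adjusted p = 0.185) and −0.25 (SE 0.08, adjusted p = 0.0103), and the term for the set gave −0.25 (adjusted p = 0.0857). Srp54c, one of the mouse copies of the signal-binding subunit, was at −0.27 (SE 0.10, adjusted p = 0.0254) in IP RNA, lost without Pdx1 siRNA IP 3, control IP 1 or control IP 2 (−0.22 to −0.21, adjusted p = 0.096 to 0.117), and at 0.01 with the term for the set. Srp19, a gene of the particle's assembly, was at −0.43 (SE 0.14, adjusted p = 0.0172) in total RNA, lost without Pdx1 siRNA total 2, Pdx1 siRNA total 3, control total 1 or control total 3 (−0.35 to −0.31, adjusted p = 0.0775 to 0.113). Srp9, Srp14, Srp54a and Srp72 passed neither test, at −0.27 to 0.15 in total RNA and −0.09 to 0.24 in IP RNA.

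In the COPII coat the GTPases that start a vesicle moved most. Of 13 genes 6 were higher in total RNA and the other 7 not called, and 3 were higher and 3 lower in IP RNA, with medians of 0.14 and −0.07. Of all genes 23.8% were higher in total RNA, and 29.2% were higher and 30.4% lower in IP RNA, both above the 23.1% of the 13 in each direction. Sar1b had 205, 168 and 208 CPM in Pdx1 siRNA total RNA and 130.2, 122 and 133 CPM in control total RNA. The Pdx1 siRNA IP libraries had 329.7, 321 and 374 CPM and the control IP libraries 247, 231 and 229.6 CPM. The groups did not overlap, with effects of 0.59 (SE 0.09, adjusted p = 6.9e-05) and 0.53 (SE 0.09, adjusted p = 1.4e-04).

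Sar1a, the COPII gene with the highest level per kilobase, had 457, 411 and 489 CPM in Pdx1 siRNA total RNA and 358, 336 and 382 CPM in control total RNA. For IP RNA the values were 768, 761 and 925 CPM with Pdx1 siRNA and 599, 575 and 600.4 CPM with control siRNA. Both kinds of RNA separated the siRNAs, with effects of 0.34 (SE 0.10, adjusted p = 0.00811) and 0.47 (SE 0.10, adjusted p = 6.2e-04). Sec23b, of the inner coat layer, had 89.2, 99.5 and 86.7 CPM in Pdx1 siRNA total RNA and 72.9, 76.6 and 73.6 CPM in control total RNA. With Pdx1 siRNA it had 63.01, 60.8 and 62.1 CPM in IP RNA, against 56.3, 53.4 and 50.9 CPM with control siRNA. Its groups were apart in both, with effects of 0.30 (SE 0.07, adjusted p = 0.00196) and 0.21 (SE 0.07, adjusted p = 0.0189), and the call in IP RNA was lost without Pdx1 siRNA IP 1, control IP 2 or control IP 3 (0.18 to 0.20, adjusted p = 0.0564 to 0.079).

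The remaining COPII genes were called in one kind of RNA or in none. Sec16a, the scaffold of ER exit sites, was at 0.30 in total RNA (adjusted p = 0.00425) and 0.15 in IP RNA (0.122), and Sec23a at 0.23 (0.0106) and −0.09 (0.303). Sec31a, of the outer cage, was at 0.27 (SE 0.09, adjusted p = 0.0177) in total RNA with overlapping libraries, lost without Pdx1 siRNA total 2 or Pdx1 siRNA total 3 (0.22, adjusted p = 0.0734 to 0.077). The other cage gene, Sec13, was at −0.19 (SE 0.08, adjusted p = 0.0447) in IP RNA, and its call was lost with the term for the set, at −0.19 (adjusted p = 0.179), and without Pdx1 siRNA IP 2, Pdx1 siRNA IP 3, control IP 1, control IP 2, control IP 3, control total 1, control total 2 or control total 3 (−0.20 to −0.13, adjusted p = 0.0735 to 0.169). Of the Sec24 genes, which select cargo, Sec24b was at −0.27 (SE 0.07, adjusted p = 0.00432) and Sec24c at −0.21 (SE 0.07, adjusted p = 0.0224) in IP RNA, and with the term they were at −0.25 (adjusted p = 0.0703) and −0.18 (adjusted p = 0.201). The Sec24c call was also lost without Pdx1 siRNA IP 2, Pdx1 siRNA IP 3, control IP 1 or control IP 2 (−0.21 to −0.19, adjusted p = 0.0553 to 0.0643). Sec16b, Sec23ip, Sec24a and Sec24d passed neither test, at −0.07 to 0.14 in total RNA and −0.18 to 0.02 in IP RNA.

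Of the genes of coatomer, the COPI coat, few were called. Of 8 genes 2 were higher in total RNA and the other 6 not called, and 2 were higher and 1 lower in IP RNA, with medians of 0.15 and 0.01. The higher calls, 25.0% of the 8 in each kind of RNA, were near the 23.8% of all genes in total RNA and under the 29.2% in IP RNA. Copz2, the second gene for the zeta subunit, had 47.5, 37.1 and 35.6 CPM in Pdx1 siRNA total RNA and 27.7, 24.02 and 30.3 CPM in control total RNA. In IP RNA it had 114, 110.4 and 104 CPM with Pdx1 siRNA and 53.4, 48.7 and 59.1 CPM with control siRNA. The groups did not overlap, with a wider gap in IP RNA, and the fold was 1.47 in total RNA (log2 fold change 0.55, SE 0.11, adjusted p = 7.5e-04) and 2.04 in IP RNA (log2 fold change 1.03, SE 0.11, adjusted p = 1.4e-06). The difference between these effects was 0.48 (SE 0.16, adjusted p = 0.148).

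Copz1 had 129, 117 and 111 CPM in Pdx1 siRNA total RNA and 109, 102 and 109 CPM in control total RNA. Copz1 had 177, 172 and 166 CPM in Pdx1 siRNA IP RNA and 136, 135 and 139.6 CPM in control IP RNA. The gap was narrow in total RNA, at 0.16 (SE 0.07, adjusted p = 0.0773), and past the test in IP RNA, at 0.33 (SE 0.07, adjusted p = 0.00111). Copg2, a gamma subunit gene, had 43.0, 43.0 and 47.6 CPM in Pdx1 siRNA total RNA and 45.4, 48.9 and 48.3 CPM in control total RNA. Its IP values were 28.2, 26.5 and 28.7 CPM with Pdx1 siRNA and 35.4, 36.7 and 35.9 CPM with control siRNA. It overlapped in total RNA, at −0.10 (SE 0.07, adjusted p = 0.244), and was lower in IP RNA, at −0.37 (SE 0.07, adjusted p = 2.6e-04) and −0.37 (adjusted p = 0.00776) with the term for the set. The partner gene Copg1 was at 0.24 (SE 0.08, adjusted p = 0.027) in total RNA, lost without Pdx1 siRNA total 2, Pdx1 siRNA total 3, control total 1 or control total 3 (0.19 to 0.25, adjusted p = 0.0564 to 0.107).

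Cope, with the highest level per kilobase of the COPI genes, had 168, 197 and 192 CPM in Pdx1 siRNA total RNA and 198, 201 and 182 CPM in control total RNA. The Pdx1 siRNA IP libraries had 328, 271 and 295 CPM and the control IP libraries 268, 265 and 299 CPM. The groups overlapped in both, and the effects were −0.06 (SE 0.09, adjusted p = 0.598) and 0.10 (SE 0.09, adjusted p = 0.342). Copa, Copb1 and Copb2, the genes of the large coat subunits, passed neither test, at 0.11 to 0.16 in total RNA and −0.15 to −0.07 in IP RNA.

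The Arf GTPases had the most lower calls of any role in total RNA, 4 of 6 against 29.2% of all genes, and 2 of 6 were lower in IP RNA, near the 30.4% of all genes. Arf1, which recruits coatomer, had 254, 236 and 225 CPM in Pdx1 siRNA total RNA and 306, 290.1 and 292 CPM in control total RNA. For IP RNA the values were 349, 336 and 326 CPM with Pdx1 siRNA and 391, 389.5 and 371 CPM with control siRNA. Every Pdx1 siRNA library was below every control library of its kind, with effects of −0.31 (SE 0.07, adjusted p = 0.00216) and −0.19 (SE 0.07, adjusted p = 0.0374). The call in IP RNA was lost without Pdx1 siRNA IP 2, Pdx1 siRNA IP 3, control IP 1, control IP 2, control total 1, control total 2 or control total 3 (−0.18 to −0.16, adjusted p = 0.0621 to 0.113), and with the term for the set Arf1 was at −0.14 (adjusted p = 0.344).

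Arf2, a close relative of Arf1, had 32.2, 29.9 and 29.6 CPM in Pdx1 siRNA total RNA and 39.9, 39.6 and 40.5 CPM in control total RNA. With Pdx1 siRNA it had 35.9, 37.5 and 33.1 CPM in IP RNA, against 48.5, 46.1 and 43.8 CPM with control siRNA. The groups were apart, and the fold was 1.31 lower in total RNA (log2 fold change −0.39, SE 0.07, adjusted p = 2.6e-04) and 1.30 lower in IP RNA (log2 fold change −0.38, SE 0.07, adjusted p = 2.8e-04). Arf3, also of this class, went the other way, with 177, 176 and 157 CPM in Pdx1 siRNA total RNA and 142, 136 and 144 CPM in control total RNA. In IP RNA it had 206, 209 and 185 CPM with Pdx1 siRNA and 137, 141 and 140.0 CPM with control siRNA. Its groups did not overlap, with effects of 0.27 (SE 0.07, adjusted p = 0.00716) and 0.52 (SE 0.07, adjusted p = 2.6e-05). Arf5 and Arf6, the Arf of the cell surface, were lower in total RNA, at −0.33 (SE 0.08, adjusted p = 0.00327) and −0.33 (SE 0.09, adjusted p = 0.00522), and were at −0.04 and −0.19 in IP RNA, while Arf4 was at −0.03 in both.

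All 3 Sec22 genes were higher in IP RNA, where 29.2% of all genes were, and Sec22a in total RNA as well, where 23.8% were. Sec22a had 36.5, 34.5 and 40.3 CPM in Pdx1 siRNA total RNA and 27.7, 28.2 and 28.7 CPM in control total RNA. Sec22a had 52.7, 51.5 and 59.3 CPM in Pdx1 siRNA IP RNA and 40.7, 41.6 and 41.6 CPM in control IP RNA. The groups did not overlap, with effects of 0.39 (SE 0.07, adjusted p = 4.0e-04) and 0.40 (SE 0.07, adjusted p = 2.8e-04).

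Sec22b, the SNARE that fuses vesicles between the ER and the Golgi, had 84.4, 71.5 and 69.0 CPM in Pdx1 siRNA total RNA and 68.6, 61.2 and 66.5 CPM in control total RNA. Its IP values were 134, 133 and 115 CPM with Pdx1 siRNA and 95.3, 90.5 and 97.1 CPM with control siRNA. The libraries were just apart in total RNA, at 0.20 (SE 0.09, adjusted p = 0.0764), and further apart in IP RNA, at 0.43 (SE 0.09, adjusted p = 6.6e-04). Sec22c had 56.4, 51.3 and 62.7 CPM in Pdx1 siRNA total RNA and 51.1, 45.3 and 53.8 CPM in control total RNA. The Pdx1 siRNA IP libraries had 56.0, 58.0 and 67.7 CPM and the control IP libraries 48.2, 43.5 and 51.6 CPM. The groups overlapped in total RNA, at 0.18 (SE 0.10, adjusted p = 0.135), and not in IP RNA, at 0.34 (SE 0.10, adjusted p = 0.0077), where the call was lost without Pdx1 siRNA IP 3 (0.26, adjusted p = 0.0527) and with the term for the set, at 0.23 (adjusted p = 0.188).

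Where a subunit is encoded by a pair of related genes, the ratio of their counts per kilobase was taken in each library, as a description with no test. Copz1 over Copz2 was 1.505, 1.76 and 1.74 in Pdx1 siRNA total RNA and 2.18, 2.37 and 2.00 in control total RNA. Its IP values were 0.861, 0.864 and 0.881 with Pdx1 siRNA and 1.41, 1.54 and 1.31 with control siRNA. Copz2 thus had the higher level per kilobase in the Pdx1 siRNA IP libraries and Copz1 in the 9 other libraries. The Copz2 transcript has 930 bases and that of Copz1 1676, and IP over total RNA fell with length (below). The part of length in this ratio was not tested. Arf1 over Arf3 averaged 3.22 ± 0.12 in Pdx1 siRNA total RNA and 4.82 ± 0.156 in control total RNA (SD, n = 3). Its mean in IP RNA was 3.87 ± 0.172 with Pdx1 siRNA and 6.32 ± 0.251 with control siRNA. Arf1 kept the higher level of the pair in all 12 libraries.

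Sec61a1 over Sec61a2 averaged 20.3 ± 2.17 in Pdx1 siRNA total RNA and 15.7 ± 0.482 in control total RNA. The IP mean was 22.9 ± 1.81 with Pdx1 siRNA and 15.9 ± 0.613 with control siRNA. Copg1 over Copg2 averaged 8.16 ± 0.712 in Pdx1 siRNA total RNA and 6.47 ± 0.297 in control total RNA, and 7.004 ± 0.472 in Pdx1 siRNA IP RNA and 5.08 ± 0.222 in control IP RNA. In both pairs the Pdx1 siRNA libraries lay above the control libraries of the same kind of RNA.

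Sec11c over Sec11a averaged 2.70 ± 0.279 in Pdx1 siRNA total RNA and 2.51 ± 0.302 in control total RNA, where libraries overlapped. It averaged 4.70 ± 0.236 in Pdx1 siRNA IP RNA and 3.39 ± 0.316 in control IP RNA, where they did not. Sar1a over Sar1b was closer to even, at 1.08 ± 0.0489 in Pdx1 siRNA total RNA and 1.28 ± 0.0282 in control total RNA, and 1.10 ± 0.0338 in Pdx1 siRNA IP RNA and 1.15 ± 0.0441 in control IP RNA. The COPII pairs kept their order in every group: Sec23b was 5.98 to 9.07 times Sec23a in the group means, Sec24b 1.19 to 2.17 times Sec24a, Sec24c 1.40 to 2.00 times Sec24d and Sec16a 1.97 to 5.17 times Sec16b. Arf5 over Arf4 differed mainly by kind of RNA, at 1.83 ± 0.151 in Pdx1 siRNA IP RNA and 0.772 ± 0.0365 in Pdx1 siRNA total RNA, and at 1.84 ± 0.136 in control IP RNA and 0.952 ± 0.0352 in control total RNA. The Arf5 transcript has 1116 bases and that of Arf4 2165, and the part of length was not tested here either.

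**Figure D3:**
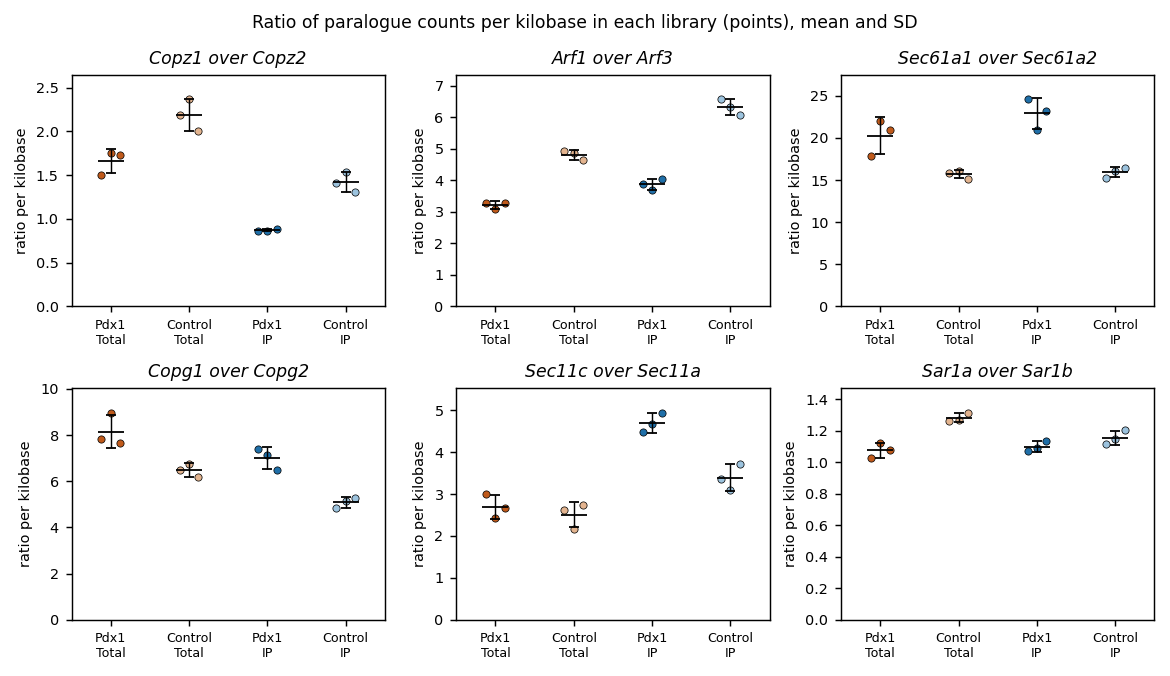
Ratio of counts per kilobase between paired genes in each library (points), with the mean (bar) and SD of 3 libraries, on linear axes that start at 0. Copz1 over Copz2 lies under 1 in Pdx1 siRNA IP RNA (mean 0.869), and Arf1 over Arf3 lies lower with Pdx1 siRNA in both kinds of RNA.

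Other genes of the pathway were counted in the same way, against 23.8% of all genes higher and 29.2% lower in total RNA, and 29.2% and 30.4% in IP RNA. Only the main fit was read for them, so their calls were not checked with the term for the set or with a library left out. Among 12 genes of the oligosaccharyltransferase, which adds sugar chains to proteins entering the ER, 4 were higher in total RNA and the other 8 not called (median 0.22), and 8 higher and 1 lower in IP RNA (median 0.31). Dad1 was at 0.61 and 0.95, Magt1 at 0.56 and 0.55, and Stt3b, a catalytic gene, at 0.05 (adjusted p = 0.68) and −0.27, in total and IP RNA. The other catalytic gene, Stt3a, had means of 886 CPM with Pdx1 siRNA and 760 CPM with control siRNA in total RNA. In IP RNA it had 547 and 514 CPM, and its libraries overlapped in both kinds of RNA. Among 18 genes of other routes of membrane insertion 5 were higher and 3 lower in total RNA, and 7 higher and 3 lower in IP RNA (medians −0.05 and 0.12). The higher share in total RNA, 27.8%, was near that of all genes. Tram1, which neighbours the channel, was at 0.45 and 0.43, and Emc1 of the ER membrane complex at 0.72 and 0.67, while Emc8 was lower at −0.45 and −0.32.

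Of 15 COPII partners and export receptors 7 were higher and 1 lower in total RNA, and 9 higher and 2 lower in IP RNA (medians 0.23 and 0.32). Lman1, a cargo receptor for glycoproteins, was at 0.69 and 0.63, Mia2, a helper of large cargo, at 0.57 and 0.47, and Cnih4 was lower at −0.33 and −0.32. Among 11 COPI partners 4 were higher in total RNA and the other 7 not called (median 0.12), and 4 higher and 2 lower in IP RNA (median 0.04). The 3 genes for receptors that return ER proteins were among the higher ones, Kdelr1 at 0.42 and 0.46, Kdelr2 at 0.30 and 0.31 and Kdelr3 at 0.52 and 0.72. Arcn1, the delta subunit of coatomer, was at −0.11 (SE 0.07, adjusted p = 0.205) in total RNA and −0.19 (SE 0.07, adjusted p = 0.0366) in IP RNA. Of 19 ER to Golgi tethers and SNAREs 5 were higher and 4 lower in total RNA, and 7 higher and 2 lower in IP RNA (medians 0.06 and 0.15), where the higher share in total RNA, 26.3%, was again near that of all genes, with Bet1l at 0.44 and 0.74 and Bnip1 at −0.58 and −0.55.

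Among the 64 genes the log2 fold change of IP over total RNA varied with transcript length and with role, which were not separated. With Pdx1 siRNA 35 were higher in IP RNA and 20 lower, against 36.3% and 38.7% of all genes, and with control siRNA 35 were higher and 18 lower, against 33.8% and 35.9%. Of these 34 were higher and 18 lower under both siRNAs. All 5 signal peptidase genes were higher in IP RNA under both siRNAs, as were 6 of 6 Arf genes with Pdx1 siRNA and 5 of 6 with control siRNA. Of the 13 COPII genes 10 were lower under both, the exceptions being Sar1a, Sar1b and Sec13, and of the 8 COPI genes the 5 of the large and gamma subunits were lower.

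Sec11c had the largest value with Pdx1 siRNA, at 1.60 (SE 0.13, adjusted p = 4.2e-08), and was at 1.17 (SE 0.13, adjusted p = 1.6e-06) with control siRNA. The libraries of Sec11c are given above. At the other end Sec24a, whose transcript has 6581 bases, had 14.1, 15.6 and 14.7 CPM in IP RNA and 41.2, 38.7 and 40.5 CPM in total RNA with Pdx1 siRNA. With control siRNA it had 14.7, 16.1 and 13.3 CPM in IP RNA and 35.2, 39.7 and 39.5 CPM in total RNA. No IP library reached the lowest total library, with log2 fold changes of −1.44 (SE 0.08, adjusted p = 2.2e-09) and −1.38 (SE 0.08, adjusted p = 4.9e-09).

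Across the 64 genes the log2 fold change of IP over total RNA fell with transcript length, with a Spearman correlation of −0.76 under both siRNAs (n = 64 genes that share the same 12 libraries). Over the 12524 genes with a known length it was −0.60 with Pdx1 siRNA and −0.63 with control siRNA. Of the 8 genes under 1000 bases 7 were higher in IP RNA under both siRNAs and 1 was not called, with medians of 1.00 with Pdx1 siRNA and 0.90 with control siRNA. Medians of all genes of that length were 0.91 and 0.73. Of the 16 genes over 4000 bases 2 were higher and 13 lower with Pdx1 siRNA (median −0.74, and −0.54 over all genes of that length), and 1 was higher and 12 lower with control siRNA (median −0.65, and −0.47 over all genes). The 20 genes of 2500 to 4000 bases were split, with 8 higher and 6 lower with Pdx1 siRNA and 9 higher and 6 lower with control siRNA. Their medians were −0.09 and 0.13, and −0.10 and −0.08 over all genes of that length. How many of all genes of each length were called was not counted, so these calls have no share to stand against. Ssr1, whose transcript of 9333 bases is the longest of the 64, was higher in IP RNA, at 0.40 (SE 0.10, adjusted p = 0.00142) and 0.35 (SE 0.10, adjusted p = 0.00506). The correlation of the siRNA effect itself with length was 0.02 in total RNA and −0.17 in IP RNA over the 64 genes, while the difference between these effects was at −0.50 over the 64 genes and −0.33 over all genes.

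**Figure D4:**
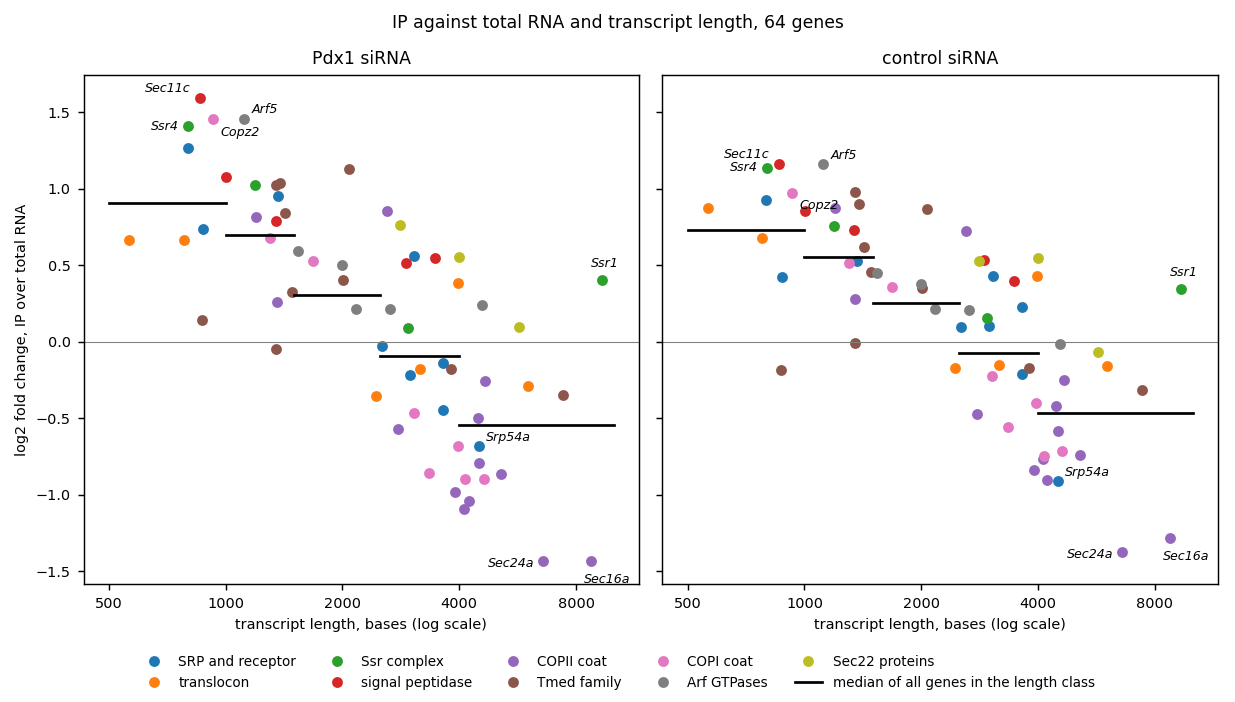
Log2 fold change of IP over total RNA against transcript length (log scale) for the 64 genes, coloured by role, with Pdx1 siRNA (left) and control siRNA (right); black lines give the median of all genes in each of 5 length classes. Short genes such as Sec11c, Ssr4, Copz2 and Arf5 lie above 0, Sec24a and Sec16a lie lowest, and the medians of all genes fall from 0.91 to −0.54 with Pdx1 siRNA and from 0.73 to −0.47 with control siRNA.

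Promoter windows of RefSeq (GRCm38.p6), from 250 bases before to 50 after a start, were found for 55 of the 64 genes, and not for Arf6, Sec11c, Sec61a1, Spcs3, Srp19, Srp68, Ssr2, Tmed2 and Tmed7. They were searched on both strands for elements known from the unfolded protein response and for the CRE. The core TGACGTGG of the UPRE, bound by XBP1 and ATF6, was in windows of 6 genes (10.9%), and in 0.714% of all 27025 genes of the table. These shares are not of like windows, since the core holds a CG dinucleotide. The median CG number before the start was 17.5 over the windows of these genes and 6.0 over all windows. The table also holds more genes than the 12643 measured, and the part of either in the shares was not tested. The 6 sites are shown with the match in capitals and 11 bases on each side, 5′ to 3′ on the gene's strand, on which CCACGTCA is the same core read from the other strand.
Arf1 (chr11:59228228-59228257, − strand): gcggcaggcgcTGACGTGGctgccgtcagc
Copb1 (chr7:114254690-114254719, − strand): cccgcccccttCCACGTCAgccaaggactt
Copb2 (chr9:98563713-98563742, + strand): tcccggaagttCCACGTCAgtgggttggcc
Sec16b (chr1:157506741-157506770, + strand): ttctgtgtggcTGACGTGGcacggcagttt
Sec23a (chr12:59011993-59012022, − strand): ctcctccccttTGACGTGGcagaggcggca
Sec24d (chr3:123267459-123267488, + strand): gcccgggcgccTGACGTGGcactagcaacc
Counted from the start, the first base of the match lies at −84 in Arf1, −28 in Copb1, −7 in Copb2, −44 in Sec16b, −26 in Sec24d and 7 in Sec23a. In the other window of Arf1 the same site lies after the start, from base 272 of that window. Of these genes Arf1 was lower in both kinds of RNA, Sec23a was higher in total RNA, and the other 4 were not called by either test. Neither Tmed3 nor Tmed6 holds this core in its window. The CRE, TGACGTCA, was in the window of 1 gene, Cope (1.82%), and in 2.03% of all genes. The ERSE, CCAAT and CCACG with 9 bases between them, and the ERSE-II, ATTGG and CCACG with 1 base between them, were in no window of these genes, and in 0.137% and 0.0444% of all genes.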

How the data were processed

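RNA-seq counts were deposited for 12 libraries: IP and total RNA of MIN6 cells with Pdx1 or NT siRNA, 3 each. Per the submitters' processing notes the reads were processed with TopHat2 and featureCounts on mm10. The values are raw read counts per RefSeq transcript as the authors deposited them, and the lowest total of a transcript over the 12 libraries was 141. The sources used here give no versions or counting settings.

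RefSeq transcript IDs were given symbols from the RefSeq gene table (GRCm38.p6); 16838 of 17133 matched, and the 295 others held 0.577% to 0.834% of counts. The transcript with the highest total stood for its gene. Counts were scaled by TMM and fitted in edgeR 4.0.16 (R 4.3.3) in 1 quasi-likelihood model of all 12 libraries with 4 groups. Contrasts compared the siRNAs within each kind of RNA, IP with total RNA within each siRNA, and the siRNA effects between IP and total RNA. P-values are Benjamini-Hochberg adjusted over all 12643 genes, called under 0.05, and the default expression filter removed 0 genes. The SE is the absolute log2 fold change over the square root of F. CPM use TMM-scaled library sizes. CPM per kilobase use transcript lengths from GENCODE M21, which also served to search for copies (at least 95% identity) with minimap2 2.31. The fit was first tested on simulated data.

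Libraries held 29430690 to 45806807 counts; the pairs of replicates correlated at 0.990 to 0.998 on the log2 scale, and all differed by more than sampling noise. Alternatives were RLE and upper-quartile scaling, DESeq2 1.42.0, other filters, Ins1 and Ins2 left out, a replicate block, the compared libraries alone, counts summed over transcripts, each library left out, and a term for 4 IP libraries. The members and lists were chosen with earlier results of these data known. The genes given with every library's value were, in each role, up to 3 called genes with the smallest p of the siRNA contrasts and at least 5 CPM, the gene with the highest level per kilobase, and pairs of related genes for their ratios; the other genes are given by role, and those of other pathway lists were picked after their values were seen.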

Additional observations from a re-analysis of the deposited data

How the results depend on the processing

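In total RNA 21 of the 27 genes higher after Pdx1 siRNA and 5 of the 6 lower ones kept their call under all 22 alternatives, and in IP RNA 14 of 28 and 1 of 12 did so under 23. The set of control IP 3 and the 3 Pdx1 siRNA IP libraries mattered most: with a term for it 22 genes were higher and 3 lower in IP RNA (main values 28 and 12; 20.6% of all genes in each direction), and within these 4 libraries, an alternative chosen after seeing the data, 14 and 1 (19.3% and 19.5% of all genes). Both compare the Pdx1 siRNA libraries with the single control IP 3, whose spread is taken from the other groups, and Srp54c turned to 0.0074 (adjusted p = 0.962) and 0.0019 (adjusted p = 0.992). The cause was not tested. With the replicate block 34 genes were higher and 10 lower in total RNA and 31 and 13 in IP RNA, and Sec11c passed in total RNA (0.30, adjusted p = 0.00369) and in the difference between the siRNA effects (0.43, adjusted p = 0.0484, 1 gene higher). Same-numbered libraries deviated from their group means with correlations of −0.06 to 0.51 between siRNAs in total RNA and 0.02 to 0.08 in IP RNA, and between IP and total RNA of −0.07 to 0.59 with Pdx1 siRNA and 0.04 to 0.26 with control siRNA. Not all were over 0.1, the limit used here, so the libraries share a number and are not treated as pairs. Libraries of unlike number were not compared in this way, so these values do not show that pairing is absent. DESeq2 called 1 lower difference, Copb2 (−0.26, adjusted p = 0.0437), where edgeR called none. Upper-quartile scaling gave 36 higher genes in total RNA. Leaving out 1 library at a time gave 23 to 34 higher and 5 to 10 lower genes in total RNA, 24 to 30 and 6 to 13 in IP RNA, 0 to 2 and 0 to 1 for the difference of the effects, 33 to 35 and 20 to 22 for IP against total RNA with Pdx1 siRNA, and 32 to 35 and 15 to 18 with control siRNA. Of all genes, the fits with 1 library left out called 2612 to 3271 higher and 2656 to 3865 lower in total RNA. In IP RNA they called 3215 to 3913 and 3385 to 4018, and for the difference 2 to 243 and 2 to 328. For IP against total RNA they called 4353 to 4672 and 4591 to 4932 with Pdx1 siRNA, and 3910 to 4599 and 3869 to 4658 with control siRNA. The median of all genes moved by less than 0.1 between scalings. A fit of the compared libraries alone was not run for the difference, which needs all 12. Tmed6, Sec61g and Srp54a, at under 13 CPM, are the genes whose precision depth limits most.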
